A study of Mus musculus with 4 samples.

Results

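Gja1, Gja4 and Gja5, which encode the gap junction proteins connexin 43, connexin 37 and connexin 40, were followed across the endothelial and mural cells of the mouse lung. They were 3 of the 20076 genes in the count matrix. They were chosen by name on the strength of their counts in these same cells, in which Gja4 and Gja1 lay in opposite directions between WT and ERG CKO endothelial cells, so that the differences of all 3 genes between these groups in endothelial and mural cells, and their levels across cell types, are given below as descriptions with no test.

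Single cells of whole lung from 4 mice were measured, 2 WT mice and 2 ERG CKO mice on a C57/BL6 background. WT mice carried ERG fl/fl alleles without Cre, and ERG CKO mice carried the same alleles with CDH5-CreER(T), a tamoxifen-dependent Cre driven by the promoter of the endothelial cadherin gene. Mice of both genotypes had been given tamoxifen, 5 times 0.5 mg at one injection per day, and lungs were taken 90 days later. The labels give no age for these mice. ERG is an ETS family transcription factor of endothelial cells, and the comparison asks how the lung endothelium differs after its deletion. The WT replicates gave 2264 and 2150 cells, the replicates labelled ERG CKO gave 3097 and 1852, with 11263911 to 18646776 unique molecular identifiers (UMIs) per library and a median of 4611 to 4899 UMIs per cell, and 7 cell barcodes occurred in more than 1 library.

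Connexins assemble in rings into a hemichannel, and hemichannels of neighbouring cells dock to form a channel through which ions and small metabolites pass between cytoplasms. Connexin 37 and connexin 40 are the connexins best known from arterial endothelium, where they couple endothelial cells with each other and with smooth muscle. Connexin 43 is best known from lymphatic endothelium, smooth muscle, epithelium and heart muscle, and in blood vessels it has been described mainly at sites of disturbed flow.

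The 3 genes lie on different chromosomes. In RefSeq coordinates on GRCm38.p6, the protein-coding gene Gja1 spans chr10:56377300-56390419, Gja4 spans chr4:127311420-127314039 on the minus strand and Gja5 spans chr3:97032402-97053634. The 250 bases upstream of each start site are printed because Gja4 and Gja5 lay lower and Gja1 higher in the libraries labelled as lacking an ETS factor. The windows are chr10:56377050-56377299 (plus strand), chr4:127314040-127314289 (minus strand) and chr3:97032152-97032401 (plus strand), each written 5′ to 3′ along the gene. Capitals mark GGAA, the core bases bound by ETS factors, on either strand (TTCC when read on the other strand), and TGANTCA, the element bound by AP-1 factors.
Gja1: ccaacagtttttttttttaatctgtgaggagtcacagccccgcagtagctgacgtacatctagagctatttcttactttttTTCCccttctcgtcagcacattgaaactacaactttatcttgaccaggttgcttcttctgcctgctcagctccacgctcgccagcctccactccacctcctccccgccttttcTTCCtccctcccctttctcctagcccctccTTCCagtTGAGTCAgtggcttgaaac
Gja4: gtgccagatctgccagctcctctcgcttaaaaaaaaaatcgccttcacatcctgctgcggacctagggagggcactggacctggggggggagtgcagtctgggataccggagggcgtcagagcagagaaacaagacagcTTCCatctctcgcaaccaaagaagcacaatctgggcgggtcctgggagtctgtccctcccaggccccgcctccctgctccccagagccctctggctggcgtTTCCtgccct
Gja5: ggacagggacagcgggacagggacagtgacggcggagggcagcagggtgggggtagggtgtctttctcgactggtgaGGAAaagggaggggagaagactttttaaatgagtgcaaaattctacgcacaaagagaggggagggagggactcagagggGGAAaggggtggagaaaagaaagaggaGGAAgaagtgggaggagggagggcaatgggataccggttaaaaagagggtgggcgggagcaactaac

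GGAA or its complement occurred 3 times in the Gja1 window, 2 times in the Gja4 window and 3 times in the Gja5 window. It occurred in 93.4% of all 32851 mouse promoter windows of this length, with a median of 3, so its number did not set the 3 genes apart from other promoters. The longer string TGGGAA, which contains GGAA, was in none of the 3 windows and in 21.6% of all windows. TGANTCA matched once in Gja1, as TGAGTCA 19 bases before the start site, and not in Gja4 or Gja5, and 6.75% of all windows held it. ACAAT, a core string of SOX factors, matched once in Gja4 and in 27.7% of all windows. GGGCGG, a GC box, matched once in Gja4 and once in Gja5 and in 32.7% of all windows. These strings were searched on both strands with the sequences in view, and a match describes letters, not binding.

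Erg itself did not separate the groups. The summed counts of blood endothelial cells held 229 and 278 Erg UMIs in the WT libraries and 488 and 221 in those labelled ERG CKO, or 85.5 and 87.9 CPM (UMI counts scaled to a common library total) against 106 and 82.7. The log2 fold change, ERG CKO over WT, was 0.09 (SE 0.16, n = 2 against 2, edgeR quasi-likelihood adjusted p = 0.848). Counts per gene do not show whether the floxed exons were missing from these transcripts. The groups are therefore called libraries labelled ERG CKO and WT, and each direction below is one between libraries as labelled.

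Cell types were rebuilt here from marker genes, since no deposited annotation was used, so values that differ from the study's own could reflect this naming. Blood endothelial cells (ECs) numbered 568 and 686 in WT, compared with 736 and 495 in ERG CKO, 2485 in all. The 8 EC markers summed to 16757 and 17812 CPM in WT ECs, to 13957 and 14900 CPM in ERG CKO ECs and to 152 to 230 CPM in T cells. ECs were divided into general capillary (gCap) cells, aerocyte capillary (aCap) cells, artery and vein, with 3 clusters left unnamed, of which those led by Cxcl12 and Hey1 (480 cells) and by the platelet genes Pf4 and Ppbp (186 cells) were the larger. Mural cells, the pericytes and smooth muscle around vessels, numbered 67, 49, 45 and 15 and were mostly pericytes by their markers Pdgfrb, Higd1b and Cox4i2. EC markers summed to 2856 to 7632 CPM in these mural cells, and the part of these endothelial transcripts in the mural values below was not tested.

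Gja4 was lower and Gja1 higher in the ECs of both libraries labelled ERG CKO than in those of either WT library. For Gja4, 693 and 910 UMIs were counted in WT ECs and 324 and 309 in ERG CKO ECs. These were 259 and 288 CPM in WT and 70.1 and 116 CPM in ERG CKO, a log2 fold change of -1.61 (SE 0.21, n = 2 against 2). The lowest WT value was thus above the highest ERG CKO value, and the ERG CKO libraries differed from each other more than the WT libraries did. In the same ECs, 7 of the 8 EC markers were lower in both ERG CKO libraries, and the gCap markers, 8 of 8 of them lower, summed to 7130 and 6622 CPM in WT and 4673 and 4702 CPM in ERG CKO. Their part in the Gja4 difference was not tested. Of WT ECs, 54.9% (95% Wilson interval 50.8 to 59.0) and 56.1% (52.4 to 59.8) had a Gja4 UMI, and of ERG CKO ECs 25.4% (22.4 to 28.7) and 31.1% (27.2 to 35.3).

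Gja1 was nearly absent from WT ECs. The WT libraries held 10 and 4 Gja1 UMIs in all their ECs and the ERG CKO libraries 170 and 78, which is 3.73 and 1.26 CPM against 36.8 and 29.2 CPM. The log2 fold change was 3.73 (SE 0.38). Of the 568 and 686 WT ECs, 5 and 4 had a Gja1 UMI, or 0.880% (95% Wilson interval 0.377 to 2.04) and 0.583% (0.227 to 1.49). Of the 736 and 495 ERG CKO ECs, 57 and 28 did, or 7.74% (6.03 to 9.90) and 5.66% (3.94 to 8.05). The most any cell held was 4 and 1 UMIs in the WT libraries and 12 and 8 in those labelled ERG CKO, so that the counts in ERG CKO came from many cells and not from a few.

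Gja5 was scarce in ECs as a whole. Its UMIs were 47 and 45 in WT, compared with 36 and 24 in ERG CKO, or 17.5 and 14.2 CPM against 7.79 and 8.98 CPM, with a log2 fold change of -0.96 (SE 0.27). The share of ECs with a Gja5 UMI was 2.82% and 3.06% in the WT libraries and 3.40% and 4.44% in those labelled ERG CKO. This order went against that of the CPM, and no order was read from it. On average, an ERG CKO EC with Gja5 held fewer UMIs of it than a WT EC with Gja5.

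The values of all 3 genes in ECs did not overlap between WT and the libraries labelled ERG CKO. They were chosen for this comparison, and the CPM of 46.5% of all 10670 genes tested in ECs did not overlap either, so nothing is read from it. By the test, 3.3% of these genes were called, 206 higher and 146 lower, at an edgeR adjusted p of 0.05. The number of calls was 352, and leaving out 1 library turned it into 34 (WT replicate 1), 5 (WT replicate 2), 546 (ERG CKO replicate 1) or 668 (ERG CKO replicate 2). Median UMIs per EC were 4228 and 4024 in WT, compared with 5479 and 4659 in ERG CKO. With every cell thinned to 1000 UMIs, the share of ECs with Gja4 was 22.5% and 24.9% in WT as against 5.09% and 12.1% in ERG CKO, that with Gja1 was 0.531% and 0% against 2.61% and 2.25%, and that with Gja5 was 1.77% and 1.18% against 0.413% and 1.23%. The count of 0 allows a share of up to 0.441%. The thinned shares left out 3, 6, 9 and 7 shallower cells. The Gja4 and Gja1 shares kept their order without the depth difference, and the Gja5 shares overlapped.

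In cells that should lack these connexins, UMIs were rare in every library. Gja4 was found in 0.197% to 0.853% of T cells and 0.518% to 1.72% of B cells, at median depths of 5850 to 6383 and 3942 to 5062 UMIs. Gja1 was found in at most 0.426% of T cells and 0.575% of B cells, so the WT EC shares of Gja1 were close to this background while the ERG CKO shares were above it. Gja5 had no UMI in 174 and 209 WT B cells, which allows shares of up to 1.72% and 1.44%.

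**Figure D1:**
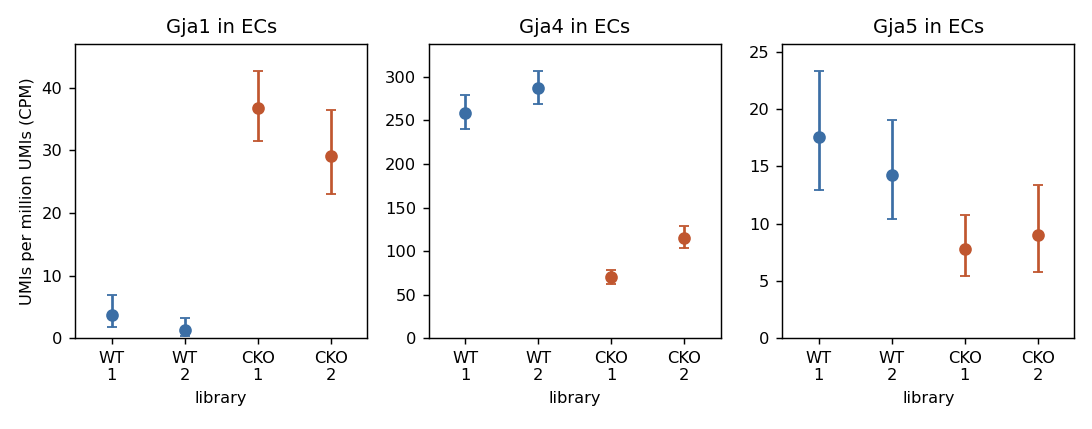
Level of Gja1, Gja4 and Gja5 (vertical axes, CPM from 0) in the summed ECs of each library (horizontal axis, WT and ERG CKO as labelled), with a point for each library and bars for its exact 95% Poisson interval. Gja4 sits at 259 and 288 CPM in WT and at 70.1 and 116 in ERG CKO, while Gja1 sits at 3.73 and 1.26 and at 36.8 and 29.2.

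Among the vessel types of the WT lung, Gja4 was widespread, Gja5 was highest in artery ECs and Gja1 in lymphatic ECs. In WT, mean Gja4 levels were highest in artery ECs (482 CPM), followed by the Cxcl12 and Hey1 cluster (399 CPM), gCap ECs (335 CPM), the Pf4 and Ppbp cluster (296 CPM) and mural cells (286 CPM). Neighbours in this order overlapped between the 2 WT libraries down to mural cells, which lay above the next type. Lymphatic ECs (134 CPM), platelets (132 CPM), vein ECs (99.6 CPM) and fibroblasts (85.3 CPM) came next, with platelets above vein in both libraries and vein overlapping fibroblasts. In aCap ECs, Gja4 was at 15.4 and 9.36 CPM in WT, from 5 UMIs in each library.

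Mean Gja5 in WT was 345 CPM in artery ECs, and the next type, fibroblasts, lay at 25.1 CPM, below both artery values. Artery ECs were 2.95% of WT ECs and held 79.3% of their Gja5 UMIs. Vein and aCap ECs had no Gja5 UMI in WT. Mural cells had 2 and 1.

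Gja1 in WT was highest in lymphatic ECs, where the 7 cells of each WT library held 37 and 18 UMIs, or 1418 and 825 CPM. Epithelial cells followed with 60.7 and 60.6 CPM, apart from both lymphatic above and artery below. Artery ECs (30.1 and 17.4 CPM, from 3 and 2 UMIs) and fibroblasts (14.7 and 29.4 CPM) overlapped. WT mural cells had no Gja1 UMI, which allows up to 3 UMIs in each library by counting error alone.

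**Figure D2:**
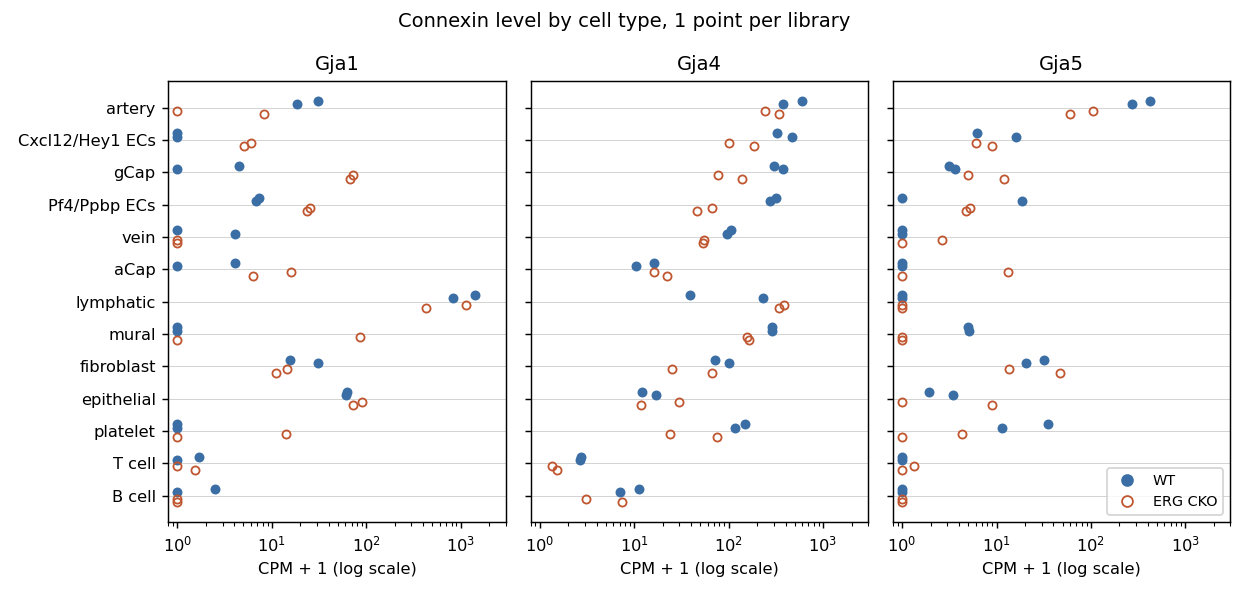
Level of each connexin gene (horizontal axis, CPM plus 1 on a log scale) in the summed cells of each type (vertical axis), with a filled point for each WT library and an open point for each library labelled ERG CKO. Gja4 is spread over artery, capillary and mural cells, Gja5 stands highest in artery and Gja1 in lymphatic ECs at 1418 and 825 CPM in WT.

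Over 19 cell types, using log2 of the WT mean CPM plus 10 and 11652 genes that reached 20 CPM in some type, the genes whose pattern was most like that of Gja4 were Armcx4 (Pearson r = 0.96), Lrrc32 (0.95), Cxcl12 (0.95), Adamts1 (0.95) and Kank4 (0.94). Lrrc32 encodes a carrier of latent TGF-beta, Cxcl12 a chemokine of arterial and perivascular cells and Adamts1 a secreted metalloprotease. Those most like Gja5 were Esr2 (0.96), Fez1 (0.95), Sfrp1 (0.95), Sulf1 (0.93) and Gper1 (0.93), each highest in artery ECs. Esr2 and Gper1 encode oestrogen receptors, Sfrp1 a secreted Wnt modulator and Sulf1 a heparan sulfatase. Those most like Gja1 were Gprc5b (0.97), Fah (0.97), Foxp2 (0.96), Rtkn (0.94) and Ptn (0.94), each highest in lymphatic ECs. These correlations are descriptions over types from the same libraries, and those of Gja1 and Gja5 turn mainly on 1 type each.

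Gja4 was lower in both ERG CKO libraries in most vessel types, with aCap and lymphatic ECs as exceptions. In gCap ECs, Gja4 was at 298 and 371 CPM in WT and at 76.0 and 137 CPM in ERG CKO, a log2 fold change of -1.73 (SE 0.24). In the Cxcl12 and Hey1 cluster it was at 328 and 471 CPM against 101 and 186 CPM (log2 fold change -1.52, SE 0.25), and in vein ECs at 104 and 94.9 against 53.6 and 52.0 CPM (-0.95, SE 0.33). WT and ERG CKO did not overlap in any of these 3 types. How many other genes separated in this way was not counted within these types. In ECs as a whole 46.5% of the genes tested did, so nothing is read from it. In the gCap ECs, the 8 gCap markers, all lower in both ERG CKO libraries, summed to 8155 and 8089 CPM in WT and 5612 and 5540 CPM in ERG CKO. The aCap markers summed to 379 and 254 CPM against 618 and 760 CPM, with 5 of 8 higher and 1 lower. Vein markers summed to 604 and 516 CPM against 893 and 749 CPM, with 6 of 9 higher and 1 lower. Their part in the gCap values was not tested. Without alignment of the libraries before clustering, the gCap log2 fold change of Gja4 was -1.08. In aCap ECs, 10 and 12 UMIs in ERG CKO gave 15.1 and 21.1 CPM, beside 15.4 and 9.36 CPM in WT, and the groups overlapped at this low level. Without alignment, the cells named aCap had 14.4 and 27.2 CPM of Gja4 in WT, and in ERG CKO 30.01 and 43.1 CPM.

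In artery ECs, Gja4 was at 591 and 373 CPM in WT and at 243 and 337 CPM in ERG CKO (log2 fold change -0.73, SE 0.35). Only 17, 20, 24 and 18 artery ECs carried these values, and 31 of the 46 Gja4 UMIs of ERG CKO replicate 2 came from 1 cell, as did 22 of the 59 of WT replicate 1. The cluster led by platelet genes had 317 and 276 CPM in WT and 65.7 and 45.3 CPM in ERG CKO (-2.37, SE 0.30). In the 887 cells of the unnamed low-depth cluster, Gja4 followed the same order, at 135 and 110 CPM against 29.4 and 64.8 CPM.

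In mural cells, Gja4 was at 288 and 284 CPM in WT and at 156 and 164 CPM in ERG CKO, from 145, 70, 31 and 5 UMIs (log2 fold change -0.85, SE 0.35). The share of mural cells with a Gja4 UMI was 58.2% and 55.1% in the WT libraries and 26.7% and 20% in those labelled ERG CKO, while their median depth was 5361 and 3454 UMIs in WT, compared with 1979 and 1044 in ERG CKO. After thinning to 1000 UMIs the shares were 16.7%, 22.0%, 15.8% and 12.5%, the last being 1 of the 8 cells left. Cre was driven by an endothelial promoter. EC markers in these cells summed to 7632 and 4947 CPM in WT and 5943 and 2856 CPM in ERG CKO, with Cldn5, a tight junction protein of ECs, at 1726, 1096, 1341 and 558 CPM. Smooth muscle markers summed to 544 and 625 CPM in WT and 882 and 788 CPM in ERG CKO, 1 of 7 being higher in both ERG CKO libraries (Acta2, encoding smooth muscle actin, at 23.8, 32.5, 222 and 98.5 CPM). Their part in the mural Gja4 values was not tested.

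Lymphatic ECs went the other way for Gja4, with 38.3 and 229 CPM in WT and 385 and 342 CPM in ERG CKO, but from 1, 5, 13 and 4 UMIs in 7, 7, 8 and 3 cells. Their Gja1, at 1418 and 825 CPM in WT and 1126 and 428 CPM in ERG CKO, overlapped between the groups.

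Gja5 was lower in the artery ECs of both ERG CKO libraries. It had 42 and 31 UMIs in the WT libraries and 14 and 8 in those labelled ERG CKO, or 421 and 269 CPM against 103 and 58.7 CPM, with a log2 fold change of -2.08 (SE 0.40). Artery ECs with a Gja5 UMI were 70.6% (46.9 to 86.7) and 50.0% (29.9 to 70.1) in WT, compared with 25% (12 to 44.9) and 33.3% (16.3 to 56.3) in ERG CKO, and after thinning 52.9% and 26.3% against 9.52% and 5.88%. In ERG CKO, 8 of the 14 UMIs of replicate 1 lay in 1 cell. Without the highest cell of each library the log2 fold change was -2.71, and with coarser EC clusters it was -4.08.

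In the other EC types Gja5 counts were low, and in none of the named or larger unnamed types did both ERG CKO libraries lie below both WT libraries. gCap ECs had 3 and 4 Gja5 UMIs in the WT libraries and 7 and 11 in those labelled ERG CKO, or 2.10 and 2.64 CPM against 3.94 and 11 CPM, and no ERG CKO gCap cell held more than 1. Artery ECs therefore held 36.7% of the Gja5 UMIs of all ERG CKO ECs, against 79.3% in WT. The 8 Gja5 UMIs of aCap ECs were all in ERG CKO replicate 1.

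Gja1 UMIs of the ERG CKO ECs lay mostly in capillary cells. gCap ECs held 127 and 66 Gja1 UMIs in ERG CKO, or 71.5 and 65.8 CPM, and 5 and 0 in WT, or 3.51 and 0 CPM. The 5 WT UMIs came from 2 cells. In all, gCap ECs carried 193 of the 248 Gja1 UMIs of ERG CKO ECs (77.8%) and were 41.8% of those cells. The fitted log2 fold change was 5.24 (SE 0.48), a value that depends on the prior count because 1 WT library was at 0. It was 9.61 without WT replicate 1, and it is no bound.

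Among the other EC types, aCap had 1, 0, 10 and 3 Gja1 UMIs, the Pf4 and Ppbp cluster 1, 1, 17 and 6, and the Cxcl12 and Hey1 cluster 0, 0, 3 and 2. Artery and vein ECs had no more Gja1 in ERG CKO (1 UMI in all) than in WT (6 UMIs). The 23 ECs of a cluster led by lymphocyte genes had 13 Gja1 UMIs, all in ERG CKO replicate 1 and 11 of them in 1 cell. Mural cells had 17 Gja1 UMIs in ERG CKO replicate 1, all in 1 cell, and none in the other 3 libraries.

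The whole-lung clusters, made before ECs were divided further, placed Gja1 more narrowly. That clustering used genes that differ between the groups, so cluster sizes are given as denominators only. A cluster led by Emcn, Apln and Angpt2, of 70, 62, 246 and 178 cells, held 34.4% of the ERG CKO ECs and 238 of their 248 Gja1 UMIs (96.0%), at 105 and 74.5 CPM, against 11.9 and 0 CPM in WT. In this same cluster Gja4 was at 308 and 412 CPM in WT and at 44.4 and 67.2 CPM in ERG CKO. Apln and Angpt2 encode secreted ligands of angiogenic endothelium.

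The larger cluster led by Gpihbp1 and Plvap, a capillary lipase anchor and a diaphragm protein, had 1 and 3 Gja1 UMIs in the WT libraries and 0 and 2 in those labelled ERG CKO. Its Gja4 was at 291 and 346 CPM in WT and at 98.6 and 226 CPM in ERG CKO. Gja4 was thus lower in both of these clusters, whereas Gja1 was counted almost only in the first. The whole-lung cluster led by the aCap markers Ednrb and Fibin did not share this Gja4 order. It held 5 and 5 Gja4 UMIs in 45 and 72 WT cells and 14 and 12 in 102 and 96 ERG CKO cells. Within gCap ECs, the 121 cells of a subcluster led by Igfbp3, Col13a1 and Esm1 held 46 and 27 of the ERG CKO Gja1 UMIs, at 288 and 256 CPM, and 4 and 0 of the WT ones, at 111 and 0 CPM, all 4 in 1 cell. Gja1 was among the leading genes of that subcluster although connexins were left out when clusters were made.

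The subtype name of these cells was not fixed by the data. Without alignment of the libraries, 229 of 247 Gja1 UMIs of ERG CKO ECs (92.7%) fell in clusters named aCap, which then held 48.0% of ERG CKO ECs and 13.3% of WT ECs. The difference of Gja1 summed over all ECs does not turn on that name.

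**Figure D3:**
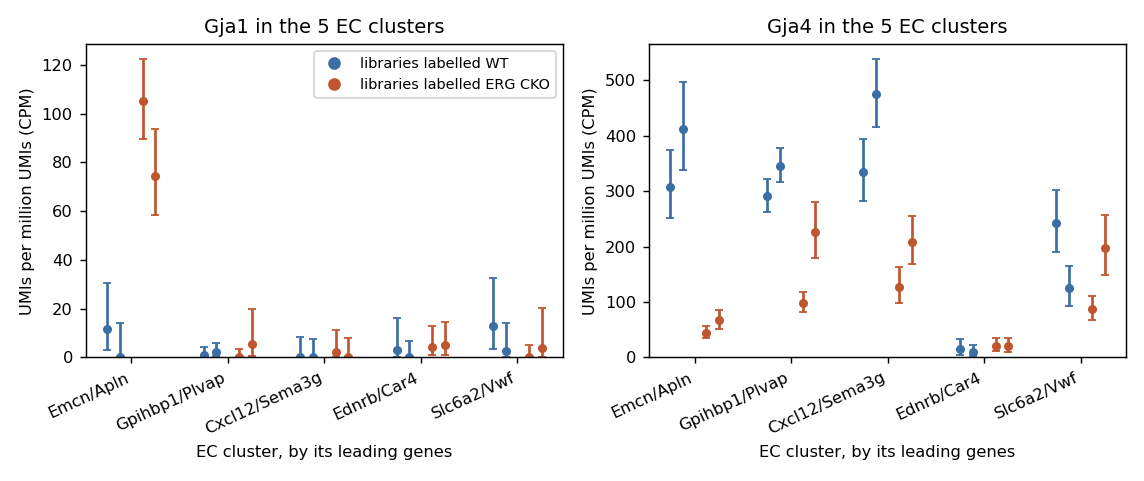
Gja1 and Gja4 levels (vertical axes, CPM from 0) in the 5 whole-lung EC clusters (horizontal axis, by leading genes), with a point for each library, WT and ERG CKO as labelled, and bars for its exact 95% Poisson interval. In the Emcn, Apln and Angpt2 cluster Gja1 sits at 105 and 74.5 CPM in ERG CKO and at 11.9 and 0 in WT, while Gja4 is lower in ERG CKO both there and in the Gpihbp1 and Plvap cluster.

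Cells with Gja1 did not hold more Gja4 than other cells. In ERG CKO, 8 of 57 and 6 of 28 ECs with Gja1 also had a Gja4 UMI, or 14.0% and 21.4%, against 26.4% and 31.7% of the ECs without Gja1. The cells with Gja1 were the deeper ones, with medians of 6172 and 5310 UMIs against 5444 and 4612. Gja4 and Gja5 were found together in 12 and 19 WT ECs and in 6 and 15 ERG CKO ECs. No EC with Gja1 in ERG CKO had a Gja5 UMI.

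Other cell types could bring these transcripts into EC sums, and their markers are given as measured. Lymphatic markers summed to 1217 and 1065 CPM in WT ECs and to 1951 and 868 CPM in ERG CKO ECs, mostly Lyve1, and of the 7 markers 2 were higher and 2 lower in both ERG CKO libraries. Prox1, the defining lymphatic factor, was at 0.373, 0, 3.46 and 0.748 CPM, Mmrn1 at 2.24, 1.90, 4.76 and 2.99 CPM and Ccl21a at 0.747, 9.48, 0 and 0 CPM. Fibroblast markers were at 42.6 and 37.6 CPM in WT and 68.1 and 73.3 CPM in ERG CKO, with 3 of 9 higher and 1 lower in both ERG CKO libraries and Lum at 0 in all 4. Erythroid markers were 35.5 and 50.9 CPM in WT ECs and 2745 and 2220 CPM in ERG CKO ECs, higher for 5 of 5 genes. Of the ERG CKO ECs, 7 and 1 had 10 or more haemoglobin UMIs, and without them the log2 fold changes were 3.75 for Gja1, -1.62 for Gja4 and -0.94 for Gja5. Platelet markers were at 69.8 and 199 CPM in WT and 342 and 213 CPM in ERG CKO, with 3 of 7 higher in both ERG CKO libraries. The part of these lymphatic, fibroblast and platelet transcripts in the differences was not tested.

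Outside the vessel wall, where the 3 genes had not been chosen, no difference passed the test. In fibroblasts, Gja4 was at 70.0 and 101 CPM in WT and at 24.1 and 65.9 CPM in ERG CKO (log2 fold change -1.29, SE 0.39, edgeR adjusted p = 0.280). It passed the threshold without WT replicate 1 (-1.54, edgeR adjusted p = 0.0118) and without ERG CKO replicate 2 (-1.74, edgeR adjusted p = 0.000312), and with all 4 libraries it did not. Gja5 in fibroblasts was at 30.5 and 19.6 CPM in WT and at 12.5 and 45.6 CPM in ERG CKO (-0.41, SE 0.55, edgeR adjusted p = 0.929), and the groups overlapped. Its direction turned without WT replicate 1 (0.17) and without ERG CKO replicate 1 (0.74). Of 7912 genes tested in fibroblasts 0.72% were called. EC markers summed to 4686 to 5985 CPM in fibroblasts, and their part in these Gja4 values was not tested. Gja1 did not pass the filter on low counts there, with 13, 12, 15 and 2 UMIs.

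In epithelial cells, Gja1 was at 60.7 and 60.6 CPM in WT and at 89.8 and 72.0 CPM in ERG CKO, a log2 fold change of 0.13 (SE 0.23, edgeR adjusted p = 0.916). Gja4 there had a log2 fold change of 0.35 (SE 0.50, edgeR adjusted p = 0.884), and 17 of its 18 UMIs in ERG CKO replicate 1 came from 1 cell. Without that library the log2 fold change was -0.47. Of the 7584 genes tested in epithelial cells 0% were called by edgeR, 603 had an unadjusted p under 0.05 and DESeq2 called 20. These tests rest on 2 mice per group, and a missed threshold does not show that levels were equal. Median UMIs per epithelial cell were 18045 and 20738.5 for WT, but 2370 and 728 for the libraries labelled ERG CKO. A Gja1 UMI was found in 45.6% and 46.7% of WT epithelial cells, as against 22.6% and 14.3% with the ERG CKO label. This order was opposite to that of the CPM. Epithelial clusters had medians of 935 (135 cells), 23840 (52 cells) and 15725 UMIs (25 cells). The part of depth and of this mix in the epithelial values was not tested.

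Of 20 other connexin and pannexin genes, 13 were in the matrix and 1, Gjc1, was abundant enough to be tested in ECs. Gjc1 encodes connexin 45, a connexin of smooth muscle, pericytes and developing vessels. It was at 91.9 and 70.5 CPM in WT ECs and at 38.7 and 41.5 CPM in ERG CKO ECs, and it fell by 1.05 on the log2 scale (SE 0.17, edgeR adjusted p = 0.0225). It also fell in gCap ECs (log2 fold change -1.06, edgeR adjusted p = 0.0374), where 3.59% of 9390 genes were called. In aCap ECs, where 10.5% of 7032 genes were called, it went from 95.5 and 91.7 CPM to 25.7 and 31.7 CPM (-1.72, SE 0.30, edgeR adjusted p = 0.000866). Without alignment, aCap cells of the groups lay mostly in different clusters, one with 42 and 67 WT and 3 and 5 ERG CKO cells and another with 4 and 12 WT and 321 and 253 ERG CKO cells, and the part of this in the aCap values here and below was not tested. Mural cells, with 220 and 268 CPM of Gjc1 in WT, had 166 and 131 CPM in ERG CKO.

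Gjb2 and Panx1 also reached 10 CPM in a WT type, with their highest levels outside blood ECs. Gjb2, encoding connexin 26, was at 26.3 and 21.9 CPM in WT monocytes and 18.9 and 17.3 CPM in ERG CKO monocytes. Panx1, which encodes the membrane channel pannexin 1, was highest in platelets at 57.1 and 83.7 CPM in WT and 49.2 and 53.7 CPM in ERG CKO.

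Of 16 connexin and junction partners, 15 were tested in ECs and 1 was called, near the 3.3% called among all genes tested. That gene was Cdh2, encoding N-cadherin, the cadherin of contacts between endothelial and mural cells, at 0.373 and 1.58 CPM in WT and 8.65 and 6.74 CPM in ERG CKO (log2 fold change 2.86, SE 0.58, edgeR adjusted p = 0.0426). The median log2 fold change of the 15 was -0.01, beside 0.01 for all genes tested. The scaffold gene Tjp1, whose protein ZO-1 binds connexin tails, was at 423 and 405 CPM in WT and 423 and 434 CPM in ERG CKO, and Cnst, which takes part in connexin transport to the membrane, had a log2 fold change of -0.01 (SE 0.22). Neither passed the test.

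Of 20 arterial and Notch genes, 19 were tested and 2 were called, both lower, in ECs, where 3.3% of all genes tested were called. Notch1, the receptor of arterial signalling, went from 278 and 236 CPM to 167 and 132 CPM (log2 fold change -0.81, SE 0.16, edgeR adjusted p = 0.0407). Sox7, a transcription factor of endothelial fate, went from 203 and 240 CPM to 112 and 147 CPM (-0.82, SE 0.16, edgeR adjusted p = 0.0377). The log2 fold change was negative for 15 of the 19, with a median of -0.46. Of the genes below the threshold, the Notch ligand Dll4 was at 118 and 124 CPM in WT and 72.0 and 92.0 CPM in ERG CKO, and Hey1, a Notch target, at 114 and 154 against 63.4 and 113 CPM. With the replicate number as a block, edgeR called Dll4, Efnb2, Hey1, Hey2, Sema3g and Sox18 as well as Notch1 and Sox7. In the fit with no block, Hey2 had a positive log2 fold change and the others named here negative ones.

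Of 14 flow and BMP genes, all were tested and 0 were called in ECs by edgeR, although 13 of 14 had a negative log2 fold change with a median of -0.43. Of these, 5 had an unadjusted p under 0.05, and DESeq2 called 2, Acvrl1 and Smad6. With the replicate number as a block, edgeR called 6, Acvrl1, Edn1, Id1, Klf4, Nos3 and Smad6. Acvrl1, a BMP receptor of endothelium, had a log2 fold change of -0.62 (SE 0.16, edgeR adjusted p = 0.0894), and Smad6, an inhibitor of BMP signalling, one of -1.01 (SE 0.27, edgeR adjusted p = 0.0993). All 4 list genes called in ECs lost the call when either WT library was left out.

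In gCap ECs, the called list genes were Gjc1, Cdh2 and Cxcl12, the last with a log2 fold change of -1.0 (SE 0.23, edgeR adjusted p = 0.0395). The median was -0.40 for the 16 arterial and Notch genes tested and -0.50 for the 14 flow and BMP genes, beside -0.0021 for all genes tested. In aCap ECs, 3 of 14 partners were called higher and 5 lower (median -0.16), of 14 arterial and Notch genes 1 higher and 3 lower (median -0.24), and of 12 flow and BMP genes 3 lower (median -0.23), beside a median of 0.02 for all genes and 10.5% called, 349 higher and 391 lower. Cav1, encoding caveolin 1, went from 1312 and 1424 CPM to 653 and 591 CPM (-1.16, SE 0.16, edgeR adjusted p = 9.55e-05), and Ctnnb1, encoding beta-catenin, from 114 and 137 CPM to 237 and 251 CPM (0.92, SE 0.20, edgeR adjusted p = 0.00449). Notch1 fell there by 2.07 on the log2 scale, from 253 and 225 CPM to 52.9 and 61.6 CPM (SE 0.22, edgeR adjusted p = 7.13e-06).

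**Figure D4:**
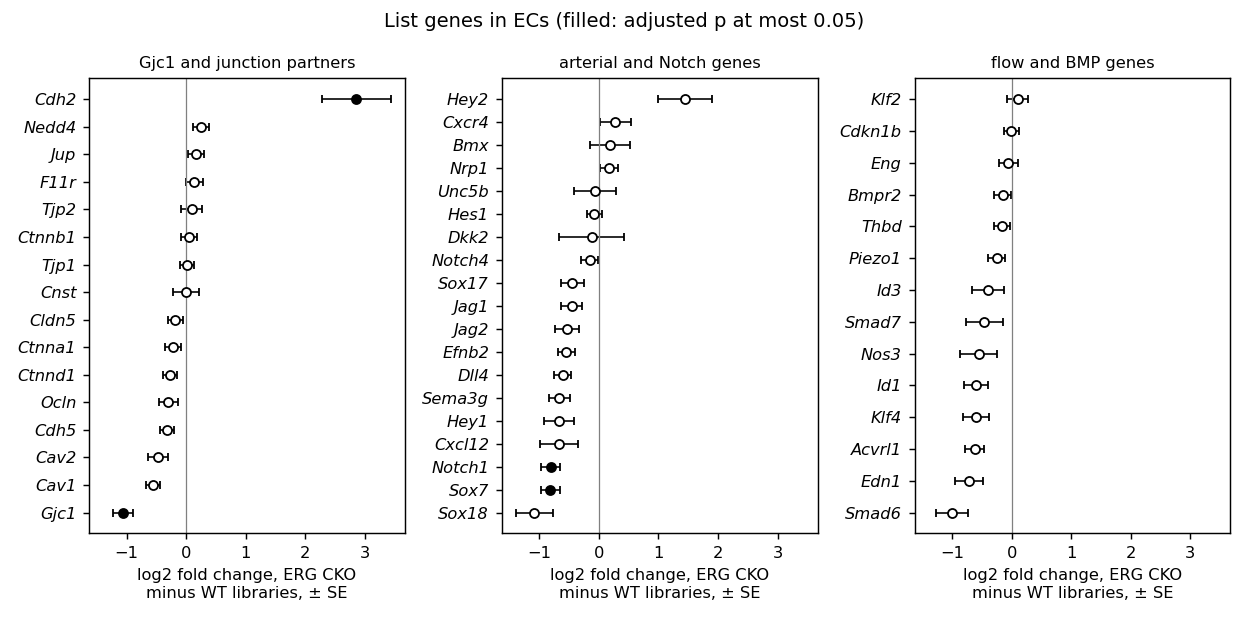
Log2 fold change, ERG CKO over WT as labelled, of the tested genes of each list in ECs, with bars of 1 standard error and filled points for called genes, Gjc1 standing with the junction partners. The 15 junction partners centre near 0 (median -0.01) and the 19 arterial and Notch genes lie mostly below it (median -0.46).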

How the data were processed

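Whole lung cells of 4 mice were captured on the 10x platform, and the authors deposited 1 table of raw counts, UMIs per gene and cell, made with Cell Ranger 3.1.0 on mm10 per the submitters' processing notes. The members and gene lists were chosen with earlier results of these data known. Cells were aligned by library and clustered with Seurat 5.3.0 (2000 variable genes, 30 dimensions, resolution 0.8; ECs 20 dimensions, resolution 0.6), leaving out connexins and, for ECs, the 352 genes called in ECs. A cluster was named from at least 3 markers. The rule that a second cell class bars a name, and the fold asked of EC subtype markers, were set after the data were seen. Doublets (60 cells) were kept and left out as an alternative.

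Counts were summed per library and cell type and compared, 2 against 2 libraries, by edgeR 4.0.16 (R 4.3.3; quasi-likelihood test, TMM, filter on low counts, Benjamini-Hochberg adjustment, threshold 0.05). With 2 mice per group, p-values measure the spread between these samples, and intervals and floors cover counting error only. An exact permutation test of 2 against 2 cannot go below p = 0.333. A standard error (SE) is the size of the log2 fold change divided by the root of its F statistic. Self-tests on simulated counts were run. Genes named were the 3 members, every list gene called in ECs, other connexins reaching 10 CPM in a WT type and the 5 genes most like each member. Not every result under this rule is reported here. Dll4, Hey1, Tjp1, Cnst, Acvrl1, Smad6, the genes named under the replicate block and the list genes named in gCap and aCap ECs were chosen after their values were seen. Alternatives were DESeq2 1.42.0, no filter, other resolutions, no alignment, doublets or cells over 10 percent mitochondrial counts left out, thinning to 1000 UMIs, the replicate block and leaving out each library. Leaving out the highest cell of each gene, clusters led by genes of other cells and cells rich in haemoglobin were added after the data were seen. Promoter sequences are RefSeq's on GRCm38.p6.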

Additional observations from a re-analysis of the deposited data

Results flagged for a closer look

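The following 3 results lay in the opposite direction to the same gene in other cell types, with every library of 1 group on 1 side. None of these differences between cell types was tested. How many other genes separated in this way was not counted in these types. In ECs as a whole 46.5% of the genes tested did, so nothing is read from the separation. Gja1 in fibroblasts had a mean of 11.8 CPM in the libraries labelled ERG CKO, from 13.4 and 10.1 CPM against 14.7 and 29.4 CPM in WT, whereas it was higher in ERG CKO in gCap ECs. Gja4 in lymphatic ECs had a mean of 364 CPM in the libraries labelled ERG CKO against 38.3 and 229 CPM in WT, from 1 to 13 UMIs per library, whereas it was lower in ERG CKO in gCap, artery, vein and mural cells. Gja5 in gCap ECs had a mean of 7.45 CPM in the libraries labelled ERG CKO against 2.10 and 2.64 CPM in WT, from 3 to 11 UMIs per library, whereas it was lower in ERG CKO in artery ECs.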

How the results depend on the processing

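The direction of Gja1, Gja4 and Gja5 in ECs, of Gja1 and Gja4 in gCap ECs, of Gja5 in artery ECs and of Gja4 in mural cells was kept in every alternative that could be fitted. Leaving out each library in turn gave log2 fold changes of 3.1 to 4.64 for Gja1, -1.98 to -1.31 for Gja4 and -1.12 to -0.81 for Gja5 in ECs. In gCap ECs the range was 4.22 to 9.61 for Gja1 and -2.15 to -1.36 for Gja4, in artery ECs -2.52 to -1.74 for Gja5 and in mural cells -1.03 to -0.83 for Gja4. Other moves came from the highest cell, whose removal gave 7.16 for Gja1 in gCap, -2.71 for Gja5 in artery and -1.06 for Gja4 in mural cells, from no alignment (-1.08 for Gja4 in gCap, -0.71 in mural cells) and from EC resolution 0.3 (-4.08 for Gja5 in artery). Gja4 in mural cells was -0.96 with no filter on low counts and -0.69 without cells over 10 percent mitochondrial counts. Artery and mural sums could not be fitted after thinning. Gja1 in gCap ECs had too few UMIs to be fitted without alignment, so its direction there was not among those kept. Clusters then named gCap held 1 and 1 Gja1 UMIs in WT and 1 and 9 in ERG CKO, 7 of the 9 in 1 cell. These were 0.663 and 0.640 CPM in WT and 1.09 and 31.0 CPM in ERG CKO.

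Thinning to 1000 UMIs gave mean shares of ECs of 0.265% in WT and 2.43% in ERG CKO for Gja1 (0.732% and 6.70% unthinned), 23.7% and 8.59% for Gja4 (55.5% and 28.3%) and 1.47% and 0.821% for Gja5 (2.94% and 3.92%). It moved the WT mean to 318 CPM for Gja4 in ECs, 537 CPM for Gja5 in artery ECs and 291 CPM for Gja4 in mural cells, which was 273 CPM without alignment and 277 CPM without cells of high mitochondrial counts.

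The number of genes called depended more on the setting. In ECs, 352 calls became 1126 with no filter, 225 after thinning and 5 to 668 without 1 library, the count being 34 when WT replicate 1 was left out, 5 when it was WT replicate 2, 546 when it was ERG CKO replicate 1 and 668 when it was ERG CKO replicate 2. In gCap ECs, 337 became 210 with DESeq2, 746 with no filter, 223 at class resolution 0.4, 205 at EC resolution 0.3, 17 without alignment, 101 after thinning and 176 to 499 without 1 library, with 176 without WT replicate 1 and 212 without WT replicate 2. In aCap ECs, 740 became 383 with DESeq2, 1406 without alignment, 200 after thinning and 404 to 723 without 1 library, 404 without WT replicate 2. The 4 list genes called in ECs became 20 with no filter and 0 to 18 without 1 library, with 0 without either WT library and 18 without ERG CKO replicate 2. The replicate block gave 1097 calls in ECs, 876 in gCap ECs and 18 list genes. The labels tie the replicate numbers to no litter, batch or day, so the block was kept as an alternative. Same-numbered libraries did resemble each other: their deviations correlated at 0.290 over 10670 genes in 2 pairs, and Xist was at 992 and 1044 CPM in both replicates 1 and at 0 in both replicates 2. The Y-linked gene Ddx3y was at 0 in both replicates 1 and at 113 and 121 CPM in replicates 2 of WT and ERG CKO. The replicate number thus went with the sex read from these 2 genes in both groups. The cause of these changes was not tested.

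Among named genes, Cdh2 had an adjusted p of 0.0532 with DESeq2, Gjc1 one of 0.173 and Notch1 one of 0.0730 with edgeR after thinning, and Notch1 one of 0.0513 with edgeR without doublets. Cdh2 and Sox7 also lost the call without ERG CKO replicate 1. Gja4 in fibroblasts passed the threshold with no filter (-1.29, edgeR adjusted p = 0.0164) and without its highest cell (-1.50, edgeR adjusted p = 0.0460), and ranged from -1.74 to -0.35 without 1 library, passing without WT replicate 1 or ERG CKO replicate 2. Gja5 in fibroblasts reversed with DESeq2 (0.0095) and ranged from -1.05 to 0.74 without 1 library, being positive without WT replicate 1 (0.17) or ERG CKO replicate 1 (0.74). Gja4 in epithelial cells was -0.47 without ERG CKO replicate 1 and up to 0.69 otherwise.

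Depth limits Gja5 outside the artery, Gja1 in WT ECs and every lymphatic value, which rest on few UMIs, and the artery and mural values, which rest on 15 to 67 cells per library.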
